A study of Saccharomyces cerevisiae with 35 samples.

Results

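Sporulation is the diploid program in which *Saccharomyces cerevisiae* passes through meiosis and packs the products into spores, and its genes are largely off in haploid cells. The 10 genes described here are *IME1* (YJR094C), *IME2* (YJL106W), *NDT80* (YHR124W), *SPS1* (YDR523C), *SPS2* (YDR522C), *SPR3* (YGR059W), *SPS4* (YOR313C), *OSW1* (YOR255W), *SPS100* (YHR139C), and *DIT1* (YDR403W). They were chosen by name, as 10 of the 12131 features (6575 of them nuclear ORFs) counted in haploid colonies, and with results of these data already known. Some of the choices used measured values: *SPS100*, *SPS2*, and *OSW1* appear among the genes the study listed for the disomes, *SPS2* and *OSW1* for the loss of 1 *DIG1* copy, and *SPS100* for the *cis3*Δ and *flo11*Δ strains. Their values against F45 of the first batch and in those comparisons are therefore given as a description, without a test. All 10 genes passed the filter on low counts in both batches.

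RNA was sequenced from whole colonies of the haploid strain F45 and its derivatives, grown for 4 d on rich medium with glucose. All strains were *MAT***a** *ho*∆*0*::*hphMX6* with *SPS2:EGFP:natMX4*, so that *SPS2* carried a fluorescent protein tag everywhere, and shared a serine auxotrophy that had not been mapped. The first batch held 24 libraries, 4 in each of 6 groups: F45, disomes of chromosome XV and of chromosome XVI, a chromosome XVI disome with *dig1Δ*::*kanMX4/DIG1* (the *DIG1/dig1*Δ disome), F45 with the empty plasmid pRS41K, and F45 with the *DIG1* plasmid pAB340 (DIG1-pFA6a-KanMX4). The second batch held 11 libraries: 3 of F45, 4 of *cis3*Δ*0*::*kanMX4*, and 4 of *flo11Δ0*::*kanMX4*, where each deletion was represented by 2 clones with 2 libraries each. Every other derivative was 1 strain, and each library was made from several pooled colonies. Each batch was scaled on its own, so levels are not compared between batches. Dig1 is an inhibitor of the transcription factors Ste12 and Tec1 of the mating and filamentous growth pathways. *FLO11* encodes a cell surface flocculin, and *CIS3* encodes a glycoprotein of the cell wall.

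Entry into meiosis is decided at *IME1*, which integrates starvation signals with mating type and encodes the activator of the early genes. In haploids the repressor Rme1 holds *IME1* down, while the product of both mating type loci removes Rme1 in the diploid. Ime1 and the kinase Ime2 start the early genes, Ndt80 then switches on the middle genes through the middle sporulation element, and the late genes build the spore wall, whose outer layers of chitosan and dityrosine are found only in spores.

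Total counts per library were 6503076 to 37823857 in the first batch (median 12144564) and 11565108 to 25104790 in the second (median 16912714). Levels are normalized CPM (counts scaled to the library's total over nuclear ORFs), and fold changes compare levels per gene copy. A gene was called where edgeR's quasi-likelihood test gave an adjusted p under 0.01. The 5 **a**-specific marker genes, all detected in every library, summed to between 195 and 879 CPM. The 4 α-specific markers summed to 9.86 to 39.6 CPM, nearly all from *STE3*, and *MATALPHA1* had no count in 15 of the 35 libraries. In the targeted strains, *DIG1* averaged 68.4 CPM in F45, 137 in the chromosome XVI disome, 60.2 in the *DIG1/dig1*Δ disome, 71.2 with the empty plasmid, and 304 with the *DIG1* plasmid, while *CIS3* was at 0.276 CPM in *cis3*Δ and *FLO11* at 4.62 CPM in *flo11*Δ.

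The 300 bases before the start codon are shown for *SPS100*, which had the widest range of levels, and for *SPS2*, *SPS4*, and *OSW1*. *SPS2*, *SPS4*, and *OSW1* were higher in the *DIG1/dig1*Δ disome than in the chromosome XVI disome, and lower with the *DIG1* plasmid than with the empty plasmid. The windows were read from the RefSeq R64 reference and not from F45, and each is written 5′ to 3′ on the strand of its gene. Capitals mark the core of the middle sporulation element bound by Ndt80, CACAAA, or its reverse complement TTTGTG.
SPS100: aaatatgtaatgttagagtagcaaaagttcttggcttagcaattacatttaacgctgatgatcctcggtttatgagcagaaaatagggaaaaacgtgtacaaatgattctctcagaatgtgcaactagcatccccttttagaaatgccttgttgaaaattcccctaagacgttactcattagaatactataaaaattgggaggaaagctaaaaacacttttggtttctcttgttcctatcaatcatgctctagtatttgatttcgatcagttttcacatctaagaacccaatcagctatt
SPS2: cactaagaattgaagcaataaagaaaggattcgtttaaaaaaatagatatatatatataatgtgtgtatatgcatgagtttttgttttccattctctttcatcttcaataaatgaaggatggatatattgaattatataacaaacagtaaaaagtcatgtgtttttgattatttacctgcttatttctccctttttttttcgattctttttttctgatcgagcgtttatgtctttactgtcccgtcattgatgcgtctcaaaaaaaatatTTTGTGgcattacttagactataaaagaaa
SPS4: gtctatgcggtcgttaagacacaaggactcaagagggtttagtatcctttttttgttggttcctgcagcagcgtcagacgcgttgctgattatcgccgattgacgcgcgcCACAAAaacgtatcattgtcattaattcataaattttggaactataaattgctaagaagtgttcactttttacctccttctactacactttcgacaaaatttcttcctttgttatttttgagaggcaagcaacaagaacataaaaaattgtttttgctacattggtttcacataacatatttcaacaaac
OSW1: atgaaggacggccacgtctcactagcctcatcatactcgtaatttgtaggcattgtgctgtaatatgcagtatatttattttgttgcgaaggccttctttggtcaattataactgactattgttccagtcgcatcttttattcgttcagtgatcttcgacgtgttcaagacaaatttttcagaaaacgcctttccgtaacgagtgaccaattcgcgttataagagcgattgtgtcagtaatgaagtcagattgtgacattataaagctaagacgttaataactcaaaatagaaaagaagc
These windows lie at chrVIII:379200-379499, − strand, chrIV:1485304-1485603, − strand, chrXV:902875-903174, − strand, and chrXV:806971-807270, + strand, respectively. The ORFs behind them span bases 378219 to 379199 of chromosome VIII (*SPS100*), 1483795 to 1485303 of chromosome IV (*SPS2*), and 901858 to 902874 and 807271 to 808107 of chromosome XV (*SPS4* and *OSW1*). The gap between *SPS1* and *SPS2* is 262 bases, so the *SPS2* window runs into the end of the *SPS1* ORF. Among 6001 promoters of this length, 19.1% held CACAAA on either strand, and 6 of the 10 sporulation genes did, at 190 to 185 bases before the start codon in *SPS4* and 30 to 25 in *SPS2*. *SPS100* and *OSW1* had no match. The pheromone response element core TGAAAC, bound by Ste12, was present in 19.4% of promoters and in 1 of the 10, *SPS4*. The Tec1 core CATTCC (10.2% of promoters) and the Ume6 core GGCGGC (5.2%) were present in none of the 10. The stress response element AGGGG, bound by Msn2 and Msn4, was present in 22.2% of promoters and in 4 of the 10, with 2 matches in *SPS100*. Both strands were searched, and none of the matches in the 10 genes overlapped each other.

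In F45 colonies most of the 10 genes were read at low levels, but *SPS100* was not. Scaled to ORF length, F45 of the first batch had 1194 ± 121 CPM per kb of *SPS100* (SD, n = 4), a level that ranked 217 among 6575 nuclear ORFs, whose median was 38.2 CPM per kb. *IME1* followed at 51.5 ± 11.6 CPM per kb, and was the only other gene of the 10 above that median. *DIT1*, *IME2*, and *SPS4* stood next at 15.7 ± 2.34, 15.0 ± 2.38, and 13.3 ± 1.16 CPM per kb. *IME2* lay within the spread of each neighbor, while the means of *DIT1* and *SPS4* differed by slightly more than the larger SD. *SPS1* lay below them at 6.96 ± 0.539 CPM per kb. *OSW1* (2.20 ± 0.617) and *NDT80* (2.05 ± 0.320) were not separable, and neither were *SPS2* (0.890 ± 0.0637) and *SPR3* (0.826 ± 0.0549 CPM per kb).

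The order changed between strains, mainly through *SPS100*. With the empty plasmid *IME1* led at 28.6 ± 4.10 CPM per kb, *SPS4* was within its spread at 25.8 ± 3.42, and *SPS100* came next at 19.4 ± 2.72 CPM per kb (rank 4439 of 6575 ORFs). In the chromosome XVI disome *DIT1* led at 16.9 ± 0.970 CPM per kb, above *SPS100* at 12.0 ± 1.76 and *IME1* at 11.4 ± 3.42, which overlapped. In neither strain did any of the 10 genes reach the median ORF (40.9 CPM per kb in the disome and 38.7 with the empty plasmid).

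**Figure D1:**
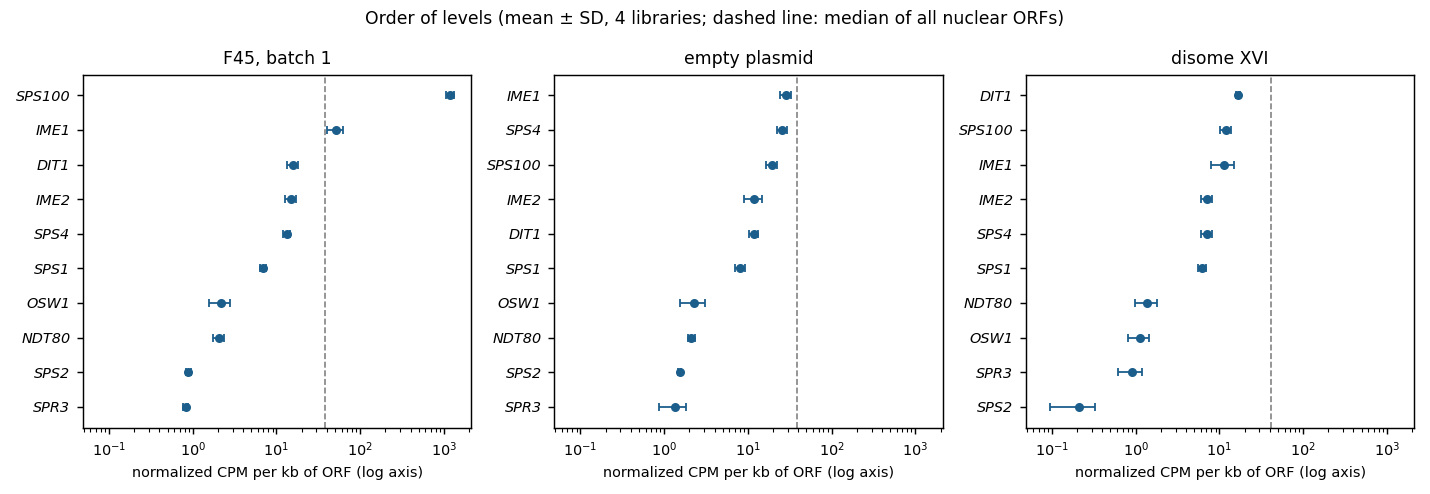
Order of the 10 sporulation genes by level in F45 of the first batch, the empty plasmid strain, and the chromosome XVI disome. Points are means of 4 libraries in normalized CPM per kb of ORF on a log axis, error bars are 1 SD, and the dashed line is the median nuclear ORF. *SPS100* stands at 1194 CPM per kb in F45, and at 19.4 and 12.0 in the other strains.

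*IME1*, the master activator of meiotic entry, was highest in F45 and lowest in both strains with 2 copies of chromosome XVI. In the first batch the 4 F45 libraries had 67.4, 65.8, 45.3, and 44.3 CPM, those of the chromosome XV disome 43.8, 39.2, 27.9, and 27.5, and those of the chromosome XVI disome 16.1, 7.45, 14.0, and 11.9. The *DIG1/dig1*Δ disome had 10.3, 12.4, 13.7, and 15.6 CPM, the empty plasmid strain 25.9, 29.3, 36.4, and 32.1, and the *DIG1* plasmid strain 25.8, 38.7, 35.9, and 39.1. All F45 libraries lay above those of the other 5 groups, and those of the chromosome XVI strains below all the rest. *IME1* fell in the chromosome XVI disome (log2 fold change −2.17, SE 0.19, edgeR adjusted p = 2.71e-10) and in the *DIG1/dig1*Δ disome (−2.11, SE 0.20, adjusted p = 1.05e-09). It fell by less in the chromosome XV disome (−0.72, SE 0.18, adjusted p = 8.7e-04) and in the empty plasmid strain (−0.85, SE 0.17, adjusted p = 1.08e-04). In whole colonies, fewer cells with the transcript and less transcript per cell cannot be told apart. The summed **a**-specific markers moved with it in part, from 617–683 CPM in F45 to 246–310 in the chromosome XVI disome but 800–879 with the empty plasmid. They were lowest in the chromosome XV disome, at 195–217 CPM, where *IME1* was higher than in the chromosome XVI disome. The part of these markers in the result was not tested.

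*IME2*, which encodes the meiotic protein kinase that acts with Ime1, followed a flatter course of the same kind. Its libraries held 33.2, 31.7, 28.1, and 22.9 CPM in F45, 11.6, 13.8, 13.5, and 16.7 in the chromosome XVI disome, and 10.5, 14.0, 14.3, and 16.9 in the *DIG1/dig1*Δ disome. It fell in both (−1.09, SE 0.17, adjusted p = 5.29e-06, and −1.08, SE 0.18, adjusted p = 1.06e-05), and the groups did not overlap F45. The chromosome XV disome had 27.6, 25.5, 16.6, and 16.7 CPM, overlapping F45, and did not pass the threshold of 0.01 (−0.47, SE 0.17, adjusted p = 0.0167). That value passed in 4 of 17 alternatives (lowest adjusted p = 0.00384). *IME2* was at 30.3, 23.9, 19.9, and 17.8 CPM with the empty plasmid (−0.33, SE 0.15, adjusted p = 0.0815, but 0.00628 without the library at 30.3) and at 22.6, 22.7, 21.0, and 17.4 with the *DIG1* plasmid.

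*NDT80*, the activator of the middle genes, stayed between 1.55 and 5.95 CPM in all 35 libraries and passed the threshold in none of the 10 comparisons. Its lowest mean was that of the chromosome XVI disome (2.60 ± 0.756 CPM, SD, n = 4) against 3.86 ± 0.603 in F45 (−0.63, SE 0.22, adjusted p = 0.0151). Libraries of these groups overlapped. The value passed in 5 alternatives, among them edgeR's likelihood ratio test (adjusted p = 0.00817).

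**Figure D2:**
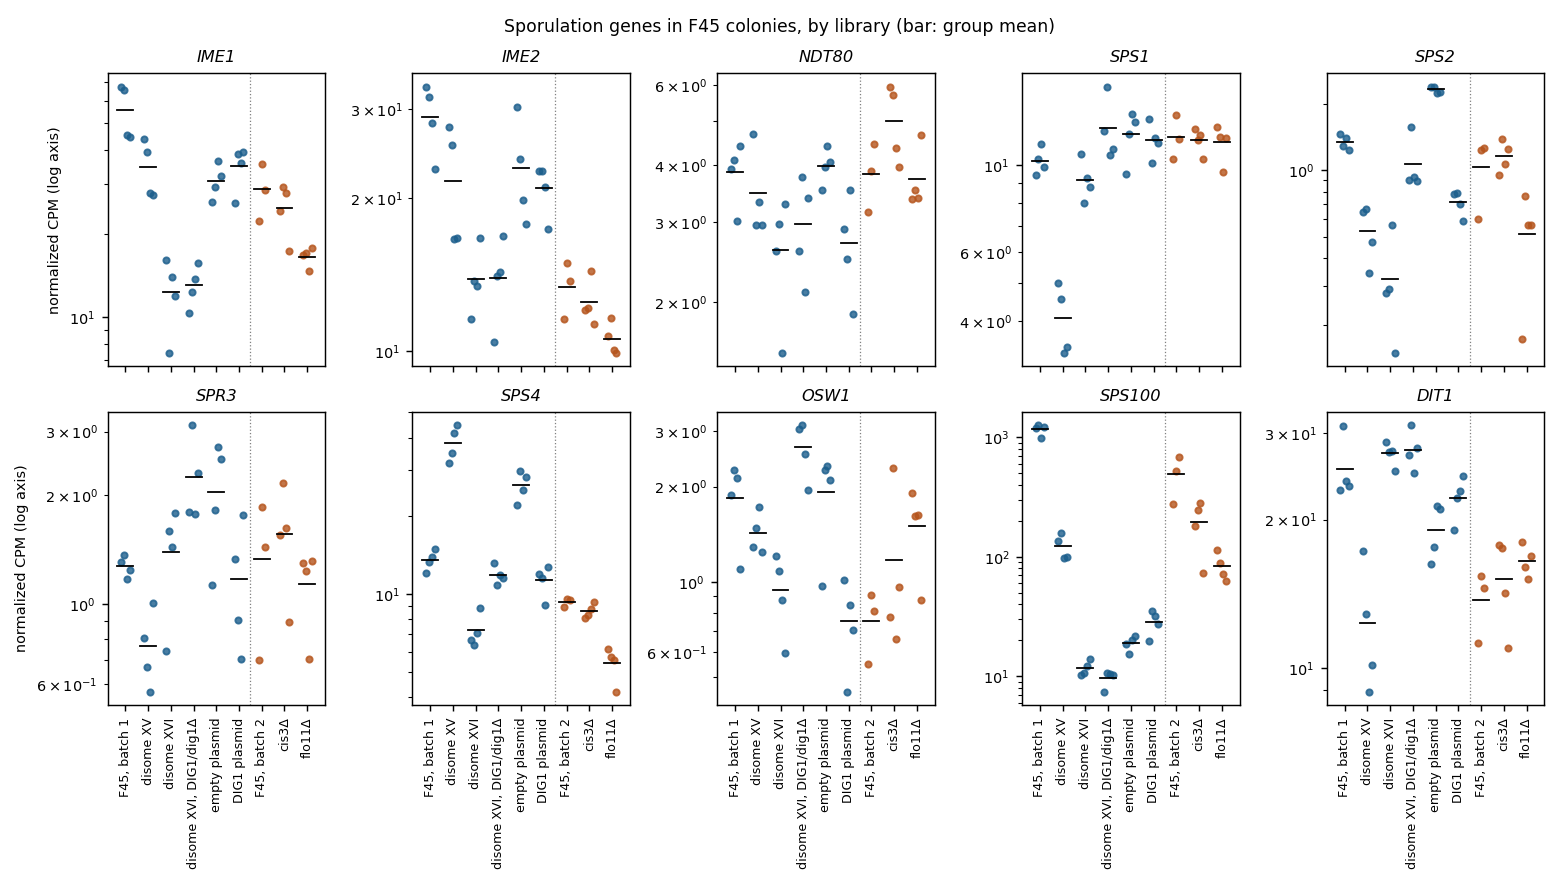
Levels of the 10 sporulation genes in all 35 libraries, in normalized CPM on log axes that differ between genes; each point is a library and each bar a group mean. Blue points are the first batch and brown points the second, and levels of *SPS4* and *OSW1* in the chromosome XV disome are not divided by copy number. *SPS100* spans 7.42 to 1262 CPM in the first batch, whereas *NDT80* spans 1.55 to 4.68.

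The genes of the prospore membrane and spore wall, *SPS1*, *SPS2*, and *SPR3*, were read at low levels and had different patterns. *SPS1*, a kinase needed to close the prospore membrane, was lowest in the chromosome XV disome. That disome had 5.01, 4.56, 3.32, and 3.43 CPM, against 9.43, 10.4, 11.3, and 9.92 in F45 and 10.7, 8.03, 9.27, and 8.81 in the chromosome XVI disome. All 4 libraries of the chromosome XV disome lay below every other library of the first batch. *SPS1* fell relative to F45 (−1.40, SE 0.17, adjusted p = 3.73e-08) and was lower than in the chromosome XVI disome (−1.23, SE 0.17, adjusted p = 6.05e-07). The means of the other groups lay between 9.19 and 12.4 CPM.

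*SPS2*, expressed in sporulation and needed with its paralog *SPS22* for the spore wall, was counted at 1 to 76 read pairs per library over its ORF. F45 had 1.45, 1.29, 1.39, and 1.24 CPM, the chromosome XV disome 0.646, 0.671, 0.344, and 0.473, and the chromosome XVI disome 0.278, 0.289, 0.567, and 0.149. The *DIG1/dig1*Δ disome had 0.899, 1.56, 0.927, and 0.889 CPM, the empty plasmid strain 2.39, 2.39, 2.23, and 2.26, and the *DIG1* plasmid strain 0.783, 0.789, 0.706, and 0.587. The empty plasmid libraries were the highest, and no library of the chromosome XV disome or of the chromosome XVI disome reached those of F45. The log2 fold changes against F45 were −1.38 (SE 0.28) in the chromosome XV disome, −1.82 (SE 0.28) in the chromosome XVI disome, and 0.78 (SE 0.18) with the empty plasmid. The untagged allele was not measured.

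*SPR3*, a septin made only in sporulation, lay between 0.573 and 3.12 CPM in all libraries and passed the threshold in no comparison. Its group means ran from 0.764 ± 0.187 CPM (SD, n = 4) in the chromosome XV disome to 2.25 ± 0.632 in the *DIG1/dig1*Δ disome. The latter lay above every F45 library (0.78, SE 0.32, adjusted p = 0.0399). Without empty plasmid library 1 (1.13 CPM), *SPR3* passed as higher with the empty plasmid than in F45 (0.90, adjusted p = 0.00377) and as lower with the *DIG1* plasmid than with the empty one (−0.97, adjusted p = 0.00395). With 5 to 56 read pairs per library, changes of the size seen in *IME2* could be missed.

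*SPS4* and *OSW1* lie on chromosome XV and are present in 2 copies in its disome. *SPS4*, induced in sporulation and of unknown function, had 31.8, 35.02, 41.5, and 44.6 CPM there before adjustment for copy number, against 12.0, 13.3, 13.9, and 14.9 in F45. Per copy this was 19.1 CPM, higher than in F45 (0.52, SE 0.12, adjusted p = 3.3e-04), so the rise exceeded the number of copies. The chromosome XVI disome had 6.67, 6.37, 7.11, and 8.81 CPM, below every F45 library (−0.94, SE 0.14, adjusted p = 1.74e-06). The *DIG1/dig1*Δ disome had 13.2, 10.8, 11.8, and 11.6 CPM, of which 1 lay in the range of F45 and 3 just below it (−0.19, SE 0.13, adjusted p = 0.227). With the empty plasmid, 21.9, 29.8, 25.2, and 28.1 CPM lay above all F45 libraries (0.95, SE 0.11, adjusted p = 8.88e-08).

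*OSW1*, required for the outer spore wall, was counted at 4 to 48 read pairs per library. Its F45 libraries had 1.89, 2.26, 2.13, and 1.10 CPM, those of the chromosome XV disome 1.29, 1.48, 1.72, and 1.24 from 2 copies, and those of the chromosome XVI disome 1.20, 1.09, 0.876, and 0.597. The F45 library at 1.10 CPM lay within the range of the chromosome XVI disome, and below the chromosome XV disome before adjustment for copy number. Per copy, the chromosome XV disome (0.621 to 0.860 CPM) lay below every F45 library. The log2 fold change was −1.44 (SE 0.30) per copy in the chromosome XV disome but −0.45 without the copy number adjustment, and −0.99 (SE 0.31) in the chromosome XVI disome. The last lay between −0.88 and −1.06 in the 6 of 8 fits without 1 library in which it did not pass the threshold, those without F45 library 1, 2, or 3 or disome library 2, 3, or 4.

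*SPS100*, needed for maturation of the spore wall, had the widest range of the 10 genes. F45 had 1208, 1262, 997, and 1219 CPM, and the chromosome XV disome had 135, 159, 97.4, and 100.1. The chromosome XVI disome had 10.2, 10.7, 12.3, and 14.0 CPM, and the *DIG1/dig1*Δ disome 7.42, 10.7, 10.5, and 10.3. Euploid F45 with the empty plasmid had 18.6, 15.5, 20.1, and 21.7 CPM, and with the *DIG1* plasmid 19.7, 34.8, 31.9, and 27.6. No library of another group came within 6-fold of any F45 library of the batch, and the plasmid strains, which have the karyotype of F45, lay far nearer to the chromosome XVI strains than to F45. Relative to F45, the fitted level was 9.58-fold lower in the chromosome XV disome, 100.3-fold lower in the chromosome XVI disome, 121-fold lower in the *DIG1/dig1*Δ disome, and 61.5-fold lower with the empty plasmid. Among the 5923 ORFs tested these were the 22nd lowest, the lowest, the lowest, and the 3rd lowest log2 fold changes. All 4 values share the same 4 F45 libraries, and the plasmid and the clone that carries it cannot be told apart in the last.

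*DIT1*, an enzyme of dityrosine synthesis, was lowest in the chromosome XV disome. F45 had 22.9, 30.9, 24.0, and 23.4 CPM, the chromosome XVI disome 28.8, 27.5, 27.6, and 25.1, and the chromosome XV disome 17.3, 12.9, 8.94, and 10.1. *DIT1* fell in the chromosome XV disome relative to F45 (−1.11, SE 0.14, adjusted p = 1.32e-07), with no overlap. It was also lower there than in the chromosome XVI disome (−1.21, SE 0.14, adjusted p = 3.98e-08). With the empty plasmid it had 16.3, 17.6, 21.3, and 21.0 CPM, below F45 (−0.43, SE 0.12, adjusted p = 0.00445), a call that was lost without the F45 library at 30.9 CPM (adjusted p = 0.0525), and without either of the lowest empty plasmid libraries (0.023 and 0.0149).

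Counts of calls in the disomes partly restate how *SPS100*, *SPS2*, and *OSW1* were chosen, and are given as a description. In the chromosome XV disome 6 passed the threshold as lower and 1, *SPS4*, as higher, where 28.2% of all tested features were lower and 23.1% higher. The median log2 fold change of the 10 was −0.92 there, against −0.05 over all features. In the chromosome XVI disome 6 were lower and none higher (24.4% and 21.6% of features), with a median of −0.96 against −0.02. In the *DIG1/dig1*Δ disome 3 were lower and none higher (27.0% and 22.9% of features), namely *IME1*, *IME2*, and *SPS100*, with a median of −0.27 against −0.04. These contrasts also share the F45 libraries, and nothing is read from the counts. In the empty plasmid strain 2 were higher and 3 lower than in F45 (19.3% and 20.2% of features), with a median of −0.004 against 0.

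Set against each other, the disomes differed in 6 of the 10 genes. In the chromosome XV disome 4 were higher and 2 lower (19.4% and 19.7% of features), with a median of 0.45 against 0.001. *IME1* (1.45, SE 0.20, adjusted p = 9.04e-07), *IME2* (0.61, SE 0.18, adjusted p = 0.0058), *SPS4* per copy (1.45, SE 0.12, adjusted p = 1.46e-10), and *SPS100* (3.39, SE 0.17) were higher in the chromosome XV disome. *SPS1* and *DIT1* were lower there. *NDT80* did not pass (0.46, SE 0.23, adjusted p = 0.0922). The *IME2* difference was lost in 6 of 17 alternatives (adjusted p up to 0.0299).

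**Figure D3:**
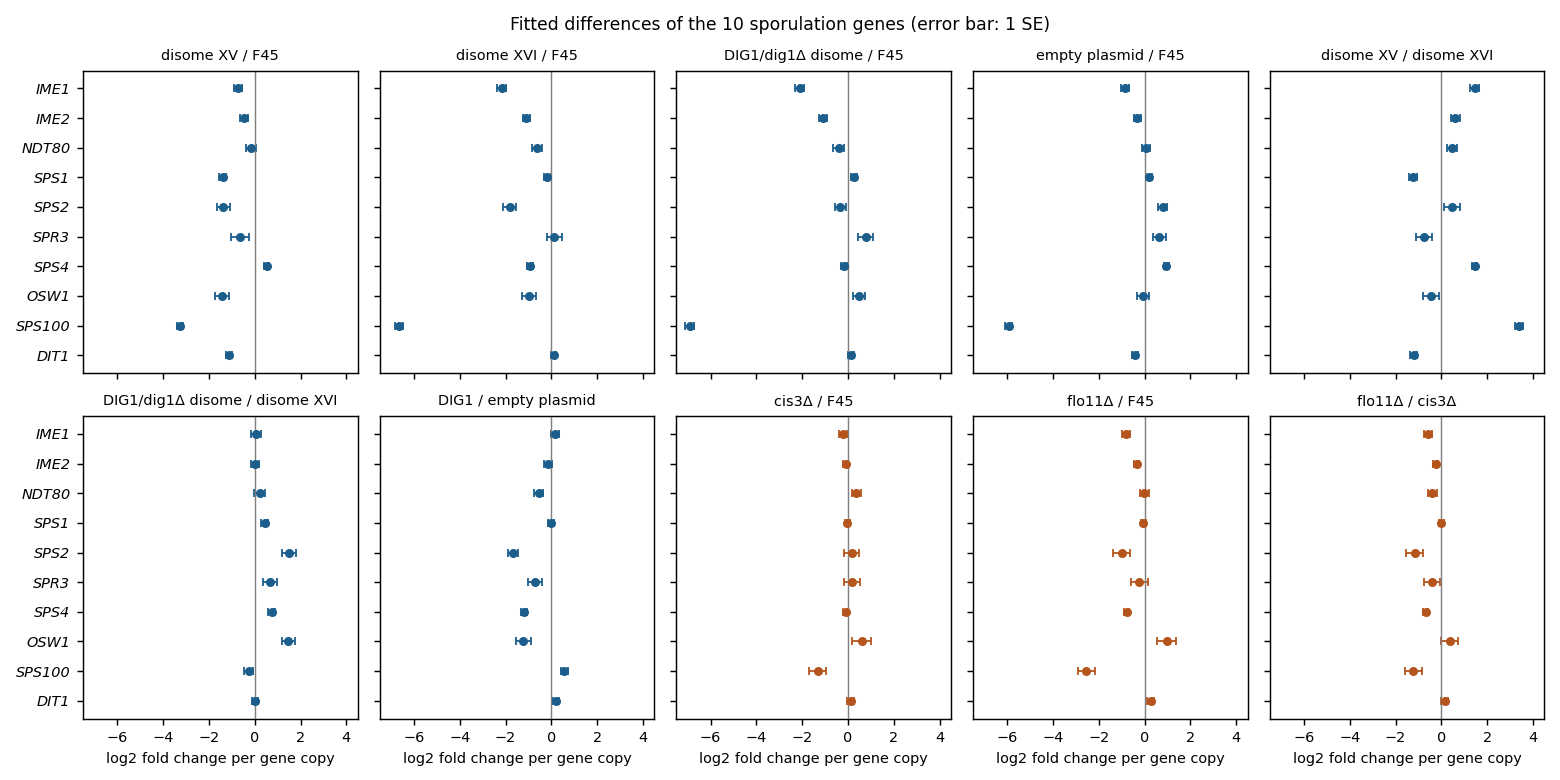
Log2 fold change per gene copy of the 10 sporulation genes in the 10 comparisons, from 1 fit per batch. Points are estimates and error bars 1 SE; blue panels are the first batch and brown panels the second. *SPS100* lies at −3.26 to −6.92 in the 4 comparisons with F45 of the first batch, while *NDT80* lies between −0.63 and 0.46 in all 10.

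*SPS2*, *SPS4*, and *OSW1* were higher in the *DIG1/dig1*Δ disome than in the chromosome XVI disome, and lower with the *DIG1* plasmid than with the empty plasmid. In the *DIG1/dig1*Δ disome, 3 of the 10 genes were higher than in the chromosome XVI disome with both copies and none lower (9.76% and 10.4% of features), and the median of the 10 was 0.33 against −0.001. Since *SPS2* and *OSW1* were chosen from this comparison, nothing is read from that count, and *SPS4* alone of the 3 is given with a test. *SPS4* rose by a log2 value of 0.74 (SE 0.14, adjusted p = 2.43e-04), and the estimates for *SPS2* and *OSW1* were 1.49 (SE 0.31) and 1.47 (SE 0.29). *OSW1* had 3.04, 3.12, 2.53, and 1.96 CPM in the *DIG1/dig1*Δ disome, all above the highest chromosome XVI disome library at 1.20. Without the *SPS2* library at 1.56 CPM, the *SPS2* estimate was 1.27 and no longer passed the threshold.

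With the *DIG1* plasmid the same 3 genes were lower than with the empty plasmid, in libraries that the choice of genes did not use. In all, 3 of the 10 genes fell and 1 rose (15.2% and 12.7% of features), with a median of −0.35 against −0.05. *SPS2* fell by 1.67 (SE 0.22, adjusted p = 5.39e-07) and *SPS4* by 1.19 (SE 0.12, adjusted p = 4.64e-09), each without overlap. *SPS4* had 12.0, 11.5, 9.03, and 12.7 CPM with the *DIG1* plasmid. That range overlapped F45 without a plasmid (12.0 to 14.9 CPM), while the empty plasmid strain lay above both (21.9 to 29.8). For *SPS2* and *OSW1*, every *DIG1* plasmid library lay below the lowest F45 library (1.24 and 1.10 CPM). The *DIG1* plasmid strain was not tested against F45. *DIG1*, its plasmid, and the clone that carries it cannot be told apart in the comparison with the empty plasmid. *OSW1* had 1.02, 0.451, 0.847, and 0.704 CPM with the *DIG1* plasmid and 0.974, 2.26, 2.33, and 2.11 with the empty plasmid, where 1 library overlapped. *OSW1* fell (−1.23, SE 0.31, adjusted p = 0.00269), but the call was lost without *DIG1* plasmid library 2 (adjusted p = 0.0159), without empty plasmid library 3 (0.0108), and in a fit of these groups alone (0.0149). *SPS100* rose slightly (0.56, SE 0.16, adjusted p = 0.00574), with overlapping libraries, and lost its call in 5 of the 8 fits that left out 1 library (adjusted p up to 0.0403). *IME1* (0.16, SE 0.17, adjusted p = 0.484) and *IME2* (−0.14, SE 0.16, adjusted p = 0.517) did not pass.

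The comparisons that vary *DIG1* in the disome and in euploid F45 were then set against each other. The contrast was the chromosome XVI disome relative to its *DIG1/dig1*Δ derivative, minus the *DIG1* plasmid relative to the empty plasmid. This contrast was added after the data had been seen. In edgeR's quasi-likelihood test, the only one run on it, it passed the threshold for none of the 10 genes, and 2 had an unadjusted p under 0.05. These were *SPS4* (0.45, SE 0.19, adjusted p = 0.0909) and *SPS1* (−0.40, SE 0.19, adjusted p = 0.135). For *SPS2* the difference was 0.18 with an SE of 0.43, and for *OSW1* −0.25 with an SE of 0.46, so differences of 2-fold could not be seen for them. *DIG1* itself differed by unequal amounts in the pairs.

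In the paper, F45 forms fluffy colonies and the disomes smooth ones, and both deletions of the second batch take the fluffy structure away. The paper used them to test whether smooth colony form drives the profile that the disomes share. Here they give the levels of the 10 genes in euploid strains without a cell surface gene. In *flo11*Δ, 3 of the 10 genes were lower than in F45 and none higher (13.0% and 12.4% of features), and the median of the 10 was −0.29 against −0.04. The 3 were *IME1*, *SPS4*, and *SPS100*, of which *SPS100* was chosen from this comparison, so the count is a description and tests are given for the other two. *IME1* had 22.3, 35.5, and 28.7 CPM in F45, 16.8, 17.0, 14.6, and 17.7 in *flo11*Δ, and 24.1, 29.3, 27.9, and 17.3 in *cis3*Δ. It fell in *flo11*Δ (−0.80, SE 0.18, adjusted p = 0.00262), though not without *flo11*Δ library 3 (adjusted p = 0.0108) or F45 library 2 (0.0155). *SPS4* had 8.95, 9.57, and 9.49 CPM in F45, 6.14, 5.72, 5.59, and 4.21 in *flo11*Δ, and 8.11, 8.33, 8.78, and 9.31 in *cis3*Δ. It fell in *flo11*Δ (−0.80, SE 0.13, adjusted p = 2.82e-04), below every library of the other groups of its batch.

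*SPS100* varied widely in the second batch, already among the F45 libraries, at 275, 520, and 679 CPM. In *flo11*Δ the clone YO2085 had 113 and 88.2 CPM and the clone YO2086 72.3 and 62.7, all below F45. In *cis3*Δ the clone YO2088 had 180 and 246 CPM and the clone YO2089 284 and 73.7, overlapping both F45 and *flo11*Δ. The fitted level was 5.86-fold lower than F45 in *flo11*Δ and 2.51-fold lower in *cis3*Δ (log2 fold change −1.33, SE 0.37). At 491.6 ± 203 CPM (SD, n = 3), *SPS100* ranked 380 of 6575 ORFs per kb in F45 of this batch.

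In *cis3*Δ none of the 10 genes passed the threshold in edgeR's quasi-likelihood test, where 0.136% of features were higher and 0.186% lower. The median of the 10 was 0.04 against −0.01. Just 1 gene, *SPS100*, had an unadjusted p under 0.05, and neither the likelihood ratio test nor DESeq2 called any. The study's own list for *cis3*Δ, at a threshold of 0.01, holds *SPS100*, a call that these fits did not return. *IME2* was at 11.6, 14.9, and 13.8 CPM in F45 and 12.1, 12.1, 14.4, and 11.3 in *cis3*Δ, with overlap. In *flo11*Δ it had 10.7, 11.6, 10.04, and 9.93 CPM (−0.35, SE 0.11, adjusted p = 0.0251, but 0.00849 without F45 library 1). *flo11*Δ set against *cis3*Δ gave 1 lower gene of the 10, *SPS4* (−0.69, SE 0.12, adjusted p = 6.13e-04), and none higher (12.7% and 12.8% of features), with a median of −0.41 against −0.03. *IME1* was at −0.57 (SE 0.17, adjusted p = 0.0154) and passed without *cis3*Δ library 4 (17.3 CPM, adjusted p = 9.7e-04). The estimate for *SPS100* was −1.22 (SE 0.36), or −1.52 (SE 0.26) without that library, which also had the lowest *SPS100* level of its group. *NDT80*, *SPS1*, *OSW1*, *DIT1*, and *SPR3* passed the threshold in none of the 3 comparisons of this batch.

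The lowest levels of the second batch were again those of *SPS2*, *OSW1*, and *SPR3*. *SPS2* had 0.600, 1.24, and 1.26 CPM in F45, 0.949, 1.38, 1.07, and 1.25 in *cis3*Δ, and 0.173, 0.762, 0.566, and 0.565 in *flo11*Δ. All *flo11*Δ libraries lay below those of *cis3*Δ (−1.17, SE 0.36, adjusted p = 0.0193) but not below those of F45 (−0.998, SE 0.38, adjusted p = 0.0492). *OSW1* had 0.550, 0.907, and 0.810 CPM in F45 and 1.90, 1.62, 1.63, and 0.880 in *flo11*Δ, the opposite order to *SPS2*, with overlap (0.96, SE 0.42, adjusted p = 0.0837). *DIT1* lay between 10.99 and 18.0 CPM and *SPS1* between 9.61 and 13.4 CPM in all 11 libraries.

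A wider set of 84 sporulation genes on 4 lists, fixed from textbook roles but with earlier results known, was read in the same fits. Of 78 tested in the first batch, 10 rose and 28 fell in the chromosome XV disome (23.1% and 28.2% of features), and 8 rose and 25 fell in the chromosome XVI disome (21.6% and 24.4%). There were 19 rises and 25 falls in the *DIG1/dig1*Δ disome (22.9% and 27.0%), or 13 and 27 with TMM factors applied to total counts. In the *DIG1/dig1*Δ disome against the chromosome XVI disome 6 rose and none fell (9.76% and 10.4% of features), with *SPS18* (0.77, SE 0.11, adjusted p = 9.34e-06) and *CDA1* (0.75, SE 0.13, adjusted p = 7.89e-05) among them, and with the *DIG1* plasmid 5 rose and 18 fell (12.7% and 15.2%). The spore wall and late list moved most often in 1 direction. Of its 18 genes, 11 fell and 1 rose in the chromosome XV disome (median −1.18), 11 fell in the chromosome XVI disome (median −0.69), and 10 fell and 1 rose in the *DIG1/dig1*Δ disome (median −0.53). Over all features, 28.2%, 24.4%, and 27.0% fell. Because the study listed 6 of these genes as lower in the disomes, the counts are no independent evidence of direction. *CDA1*, a chitin deacetylase of the chitosan layer, was at 16.1 CPM in F45 and 1.62 in the chromosome XV disome (−3.30, SE 0.16). *LDS1* followed there (−2.60, SE 0.27), and *LDS2* (−2.77, SE 0.54) and *OSW2* (−1.82, SE 0.18) were the lowest in the chromosome XVI disome. *RRT8*, a lipid droplet protein of the spore wall, lies on chromosome XV and rose in its disome, from 134 to 171 CPM per gene copy (0.35, SE 0.08, adjusted p = 3.95e-04). With the *DIG1* plasmid 7 of the 18 fell, led by *CDA1* (−1.59, SE 0.12, adjusted p = 3.23e-11) and *OSW2* (−1.20, SE 0.16, adjusted p = 8.2e-07), and *YGP1*, a secreted glycoprotein also induced by nutrient limitation, rose (0.46, SE 0.09, adjusted p = 1.67e-04). In the empty plasmid strain 5 fell and 3 rose (20.2% and 19.3% of features), with *RRT8* (−0.94, SE 0.08, adjusted p = 3.65e-10) and *SPS22*, the paralog of *SPS2* (0.94, SE 0.14, adjusted p = 2.34e-06), at the ends.

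Among the middle genes, many of them targets of Ndt80, 23 were tested. In the chromosome XV disome 8 fell and 1 rose, where 28.2% of all features fell and 23.1% rose. In the chromosome XVI disome 4 fell and 4 rose (24.4% and 21.6% of features), and in the *DIG1/dig1*Δ disome 4 fell and 10 rose (27.0% and 22.9%). *SPR28*, a septin like *SPR3*, was at 4.91 CPM in F45, 1.24 in the chromosome XV disome (−1.96, SE 0.22, adjusted p = 1.14e-08), 9.06 in the chromosome XVI disome (0.92, SE 0.14, adjusted p = 5.28e-06), and 14.3 in the *DIG1/dig1*Δ disome (1.56, SE 0.14, adjusted p = 4.66e-10). *SPS18* was lower in the chromosome XV disome (−1.81, SE 0.14, adjusted p = 1.57e-11), and *SPO73*, which acts in prospore membrane growth, was higher (0.83, SE 0.07, adjusted p = 8.7e-11). With the *DIG1* plasmid 6 of the middle genes fell and none rose (15.2% and 12.7% of features), with *SPO75* (−1.33, SE 0.25, adjusted p = 1.14e-04) and *MPC54*, of the meiotic plaque (−0.79, SE 0.19, adjusted p = 0.00129), lowest. In the empty plasmid strain 1 fell, *SMK1* (−1.50, SE 0.30, adjusted p = 1.33e-04), and 6 rose (20.2% and 19.3% of features).

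Of 21 early meiotic genes, which act in recombination and synapsis, 4 fell and 5 rose in the chromosome XV disome (28.2% and 23.1% of features), 4 fell and 2 rose in the chromosome XVI disome (24.4% and 21.6%), and 3 fell and 5 rose in the *DIG1/dig1*Δ disome (27.0% and 22.9%). These counts lie near or below the shares over all features. *HOP1*, a component of the meiotic chromosome axis, rose in the chromosome XV disome from 2.24 to 6.19 CPM (1.51, SE 0.22, adjusted p = 1.28e-06). *RIM4*, an RNA-binding regulator of meiosis, fell from 62.7 to 24.4 CPM there (−1.43, SE 0.15, adjusted p = 5.69e-09) and to 24.7 in the chromosome XVI disome (−1.34, SE 0.15, adjusted p = 1.36e-08). *RIM4* fell in *flo11*Δ as well (−0.71, SE 0.11, adjusted p = 3.04e-04). With the *DIG1* plasmid 4 fell and none rose (15.2% and 12.7% of features), among them *HOP1* (−1.01, SE 0.24, adjusted p = 0.00169).

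Among the 16 regulators, *RME1*, the haploid repressor of *IME1*, was at 70.5 CPM in F45, 9.72 in the chromosome XV disome, 9.35 in the chromosome XVI disome, 8.16 in the *DIG1/dig1*Δ disome, and 28.0 with the empty plasmid. It was thus low in the strains in which *IME1* was low, and its part in the *IME1* values was not tested. The study lists *RME1* for the disomes, and no test is given for it there. *PHD1*, an activator of filamentous growth genes, fell from 162 CPM to 86.2 in the chromosome XV disome (−0.92, SE 0.10, adjusted p = 3.54e-09) and 50.01 in the chromosome XVI disome (−1.69, SE 0.10, adjusted p = 3.81e-14). *IME4*, an mRNA methyltransferase of meiotic entry, rose in the chromosome XV disome from 14.8 to 29.4 CPM (0.98, SE 0.08, adjusted p = 1.02e-10) and slightly in the chromosome XVI disome (0.32, SE 0.09, adjusted p = 0.00254). In *flo11*Δ 5 of the 76 listed genes tested rose and 11 fell, near or below the shares over all features (12.4% and 13.0%). Among the regulators *MCK1*, a kinase that acts upstream of *IME1*, rose (0.71, SE 0.09, adjusted p = 4.07e-05) and *MSN2*, a stress activator, fell (−0.59, SE 0.08, adjusted p = 1e-04). None of the 76 listed genes tested in the second batch passed in *cis3*Δ by edgeR's quasi-likelihood test, where 11 had an unadjusted p under 0.05, the likelihood ratio test called 1, and DESeq2 called 3.

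**Figure D4:**
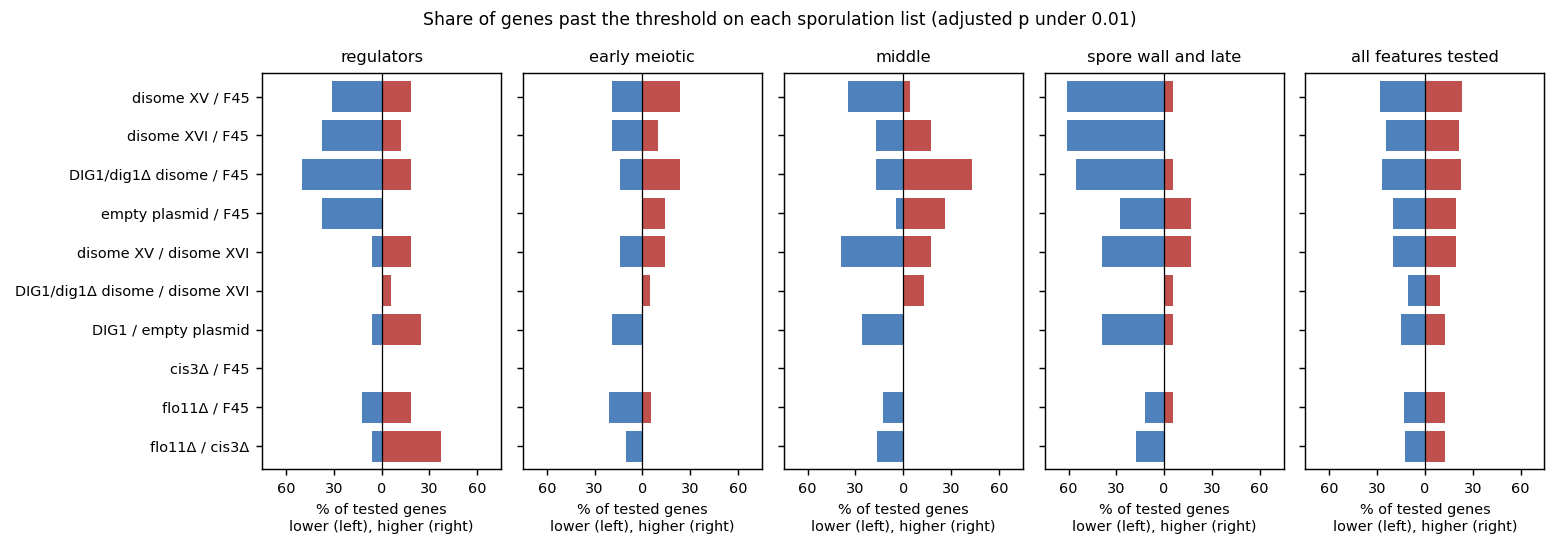
Share of the tested genes of each sporulation list, and of all features, that passed an adjusted p of 0.01 in each comparison, as a percentage on a shared axis. Blue bars to the left are lower and red bars to the right higher in the strain named first. Of the 18 spore wall and late genes, 11 were lower in each disome than in F45, and the *cis3*Δ bars are at or near 0.

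Transcripts on the other strand could be read over parts of most of the genes, because the counts keep strand. In the authors' annotation 9 of the 10 (all but *SPS4*) are overlapped there by 14 noncoding features, but a base shared by several features of 1 strand gives no count by default, and 2 features with no base of their own had 0 counts in every library. The 9 features that keep bases of their own opposite 1 of the 10 genes touch 8 of them, and none exceeded 3.20 CPM in any library. These stretches were as short as 24 bases for *SPS1*, 53 for *NDT80*, and 53 and 70 for *IME2*, and at most 774 (*DIT1*). Counts of ST0791 come from 495 bases, of which 24 lie opposite *SPS1* and 209 opposite *SPS2*. Low counts therefore say little about the rest of the other strand of these genes. ST4914, which lies within *SPR3* on chromosome VII (608595 to 609099, R64 build), averaged 0.902 ± 0.232 CPM in F45 (SD, n = 4), 2.14 ± 0.714 in the disome of chromosome XV, and 1.76 ± 0.656 in that of chromosome XVI. It rose in both (1.403, SE 0.32, adjusted p = 3.96e-04, and 1.02, SE 0.32, adjusted p = 0.00854), while *SPR3* on the sense strand did not pass the threshold in either. Features 8F-168 and ST1508 span the whole of *SPS100* but have no base of their own opposite it. Counts of 8F-168, from 454 bases beyond *SPS100*, fell from 8.72 ± 1.43 CPM in F45 to 3.11 ± 0.624 in the chromosome XVI disome (−1.42, SE 0.16, adjusted p = 2.81e-08) and 2.62 ± 0.559 with the empty plasmid (−1.73, SE 0.15, adjusted p = 5.46e-10).

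For the 6 genes with a mean of at least 5 CPM in the first batch, the 3 most alike of 5913 other ORFs were found by Pearson's r over the 6 group means of log2(CPM + 1), as a description. Nearest to *SPS100* were *TKL2*, a transketolase (r = 0.998), YBR116C (r = 0.991), and *PDC6*, a pyruvate decarboxylase (r = 0.990). *TKL2* averaged 424 CPM in F45, 56.0 with the empty plasmid, and 49.2 in the chromosome XVI disome, and *PDC6* 276, 17.2, and 13.0 CPM. *IME1* was most like *UGA4*, a permease (r = 0.997), *PTP3*, a phosphatase (r = 0.993), and *CTT1*, the cytosolic catalase (r = 0.990), of which *CTT1* had 2643 CPM in F45, 802 with the empty plasmid, and 218 in the chromosome XVI disome. *PTP3* was also the nearest to *IME2* (r = 0.996), ahead of *YDR215C* and *FSH1*. *SPS1* was most like *EDS1* (r = 0.995), *SPS4* like *MXR1* (r = 0.976), and *DIT1* like *YPK2* (r = 0.995). With 6 points from the same libraries, high values are found for many ORFs.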

How the data were processed

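The authors aligned read pairs with Bowtie2 2.1.0 to a genome made of the S288c R64 build plus F45 genes absent from it, and counted them by strand with featureCounts 1.4.0. The deposited tables hold these raw counts for 12131 features in 35 libraries. The columns name strains, not the replicate numbers of the labels, so libraries are numbered in column order.

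edgeR 4.0.16 in R 4.3.3 was run on these counts, batch by batch. TMM factors and library sizes came from nuclear ORFs, and those of the disomic chromosomes were left out of this step where disomes were fitted. Of the features, 8097 and 8059 passed filterByExpr. Groups were compared with two-sided quasi-likelihood tests adjusted by Benjamini–Hochberg over all tested features, with a threshold of 0.01. Fold changes are per gene copy, with 2 copies for a disomic chromosome. P-values measure the spread between these pools of colonies. Alternatives were the likelihood ratio test, DESeq2 1.42.0, other scalings and filters, a replicate block, and leaving out each library.

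The 10 genes and all lists were chosen with earlier results of these data known. All 10 were named, with at most 2 genes per list, direction, and comparison, noncoding features opposite the 10, and the 3 ORFs most alike. All 10 ORFs had the same coordinates in RefSeq.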

Additional observations from a re-analysis of the deposited data

Results flagged for a closer look

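In 80 combinations of a sporulation gene and a group of 4 libraries, 6 held 1 library far from the other 3, where chance flags about 1 in 20. These were *NDT80* at 4.65 CPM in 1 *flo11*Δ library, *SPS100* at 7.42 CPM in 1 library of the *DIG1/dig1*Δ disome, *SPS2* at 1.56 CPM in another library of that disome, *OSW1* at 0.974 CPM in 1 empty plasmid library, *DIT1* at 30.9 CPM in 1 F45 library of the first batch, and *SPR3* at 0.707 CPM in 1 *flo11*Δ library. They came from different libraries in every group.

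The changes relative to F45 differed between the disomes for 6 genes. On the log2 scale the chromosome XV disome minus the chromosome XVI disome was 1.45 for *IME1*, 0.61 for *IME2*, 1.45 for *SPS4*, −1.23 for *SPS1*, −1.21 for *DIT1*, and 3.39 for *SPS100*, the last given as a description. *SPS4* also differed between the deletions, at −0.69 for *flo11*Δ minus *cis3*Δ.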

How the results depend on the processing

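Over the alternatives, 1568 of 1622 fold changes of the 10 genes kept their side of the threshold, 29 lost a call, 25 gained one, and no called value changed sign; 33 uncalled values did. Counts of the 10 genes called moved by over 1.5 times in these cases. The *DIG1/dig1*Δ disome against the chromosome XVI disome gave 3, but 1 with DESeq2, which returned no adjusted p for *SPS2* and *OSW1*. *flo11*Δ against *cis3*Δ gave 1, but 4 with the likelihood ratio test, 2 with DESeq2, and 4 with only these groups fitted. Leaving out 1 library gave 2 to 4 for the *DIG1* plasmid (2 without its library 2) and 1 to 3 for *flo11*Δ against *cis3*Δ (3 without *cis3*Δ library 4). On the wider lists, leaving out 1 library gave 15 to 24 for the *DIG1* plasmid (main 23, 15 without its library 4), 10 to 16 for *flo11*Δ against *cis3*Δ (main 16, 10 without *flo11*Δ library 1 or 3), 10 to 13 for *flo11*Δ against F45 (main 16, 10 without *flo11*Δ library 2, 3, or 4 or F45 library 2 or 3), and 0 to 1 for *cis3*Δ (1 without F45 library 2), where the likelihood ratio test gave 1 and DESeq2 3. TMM factors applied to total counts lowered the disomes by up to 0.09 relative to F45, and turned 19 rises and 25 falls on the wider lists in the *DIG1/dig1*Δ disome into 13 and 27. The cause of these changes was not tested.

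A replicate block was built from numbers in the column names, which are sample suffixes in the second batch. What the numbers of the first batch stand for is not stated, and the paper sequenced that batch in 1 lane. In the first batch, deviations of same-numbered libraries from their group means had a median correlation of 0.13 (33 of 60 pairs above 0.1), against −0.04 for other numbers (48 of 180). Same-numbered libraries thus tended to deviate together, although not in every pair. The block changed no call of the 10 genes there. In the second batch the medians were 0.06 (3 of 10 pairs) and −0.04 (9 of 30), and the suffixes are not known to mark anything shared. There the block gave 4 of the 10 genes for *flo11*Δ against *cis3*Δ in place of 1, and moved no other count of the 10 by over 1.5 times. Depth limits *SPS2*, *OSW1*, and *SPR3*, with under 80 read pairs in every library.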
